A study of Mus musculus with 6 samples.

Results

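The 9 genes *Jak2*, *Stat2*, *Stat3*, *Irf1*, *Irf8*, *Irf9*, *Socs1*, *Socs3* and *Cd274* encode a Janus kinase, transcription factors of the STAT and IRF families, feedback inhibitors and a checkpoint ligand of interferon signalling. They were chosen by name, with earlier results of these data known, and found by symbol among 24346 genes measured in the mouse heart. Male C57BL/6J mice were fed chow (C group), the NASH diet, which is rich in fat, cholesterol and sucrose and contains bile acid (N group), or that diet plus pemafibrate, a PPARα agonist, at 0.1 mg/kg (NP group). The labels give 3 weeks of feeding and the methods of the study 8 weeks, and the age of the mice is not given in the sources used here. Heart RNA was sequenced as 2 libraries in each group, without a statement that these came from separate animals, so *P* values measure the spread between libraries, which may be technical. Levels are FPKM, fragments per kilobase of transcript scaled to the mapped fragments of the library, as computed by the authors. Pairs of values give replicate 1 and then replicate 2 of the group in brackets.

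Heart is the tissue in the labels, but their extraction protocol speaks of liver. The FPKM of 7 cardiomyocyte markers summed to between 44248 and 63143 in each library, with *Myl2*, a ventricular myosin light chain, as the most abundant. *Alb*, the liver's albumin gene, had an FPKM of 10.8 and 211 (C), 0.555 and 1.25 (N) and 2.04 and 1.72 (NP). C replicate 2 therefore stood apart in hepatocyte transcripts, whose 6 markers summed to an FPKM of 438 there and 30.9 in C replicate 1. The sums were 31.1 and 18.0 (N) and 9.77 and 12.8 (NP). Of these markers, *Cyp2e1* differed from *Alb* in its order, with an FPKM of 2.95 and 33.4 (C), 29.9 and 15.9 (N) and 4.51 and 10.4 (NP). Depth, estimated from the steps between low FPKM values, was about 26030000 and 21460000 reads (C), 8713000 and 8725000 reads (N) and 8254000 and 8496000 reads (NP). Against C, depth and diet cannot be told apart, whereas depth was similar in N and NP.

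Interferons bind receptors that carry Janus kinases, which phosphorylate STAT proteins. Type I interferons act through a complex called ISGF3, which contains STAT2 and IRF9 and binds interferon-stimulated response elements (ISRE), whereas interferon-gamma acts mainly at gamma-activated sequences (GAS). Genes for STATs, IRFs and SOCS proteins are themselves targets, so that the pathway amplifies and then restrains its own output.

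Of the 9 regulators, 5 were higher on the NASH diet than on chow, and these 5 were near the chow level with pemafibrate. From C to N, *Stat2*, *Irf1*, *Irf8*, *Irf9* and *Cd274* were higher in the N group, 5 of the 9 genes, against 1.48% of the 12923 genes tested, which had a mean FPKM of at least 0.5 (limma, adjusted *P* under 0.05). From N to NP these genes and *Socs3* were lower in the NP group, 6 of the 9, against 1.39% of the genes tested. From C to NP 0 of the 9 passed in limma's test, against 0.0387% of the genes tested. At an unadjusted *P* under 0.05 there were also 0 of the 9, against 1040 of the 12923 genes. The median log2 difference of the 9 genes was 1.21 from C to N, -1.29 from N to NP and 0.0032 from C to NP, whereas the medians of all genes tested were -0.0308, 0.0254 and -0.0127. Differences are on the log2(FPKM + 1) scale, which understates the change of low genes. The comparisons share libraries and are not independent of each other. Because earlier results were known when the 9 genes were chosen, the contrast with all genes is a description only.

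**Figure D1:**
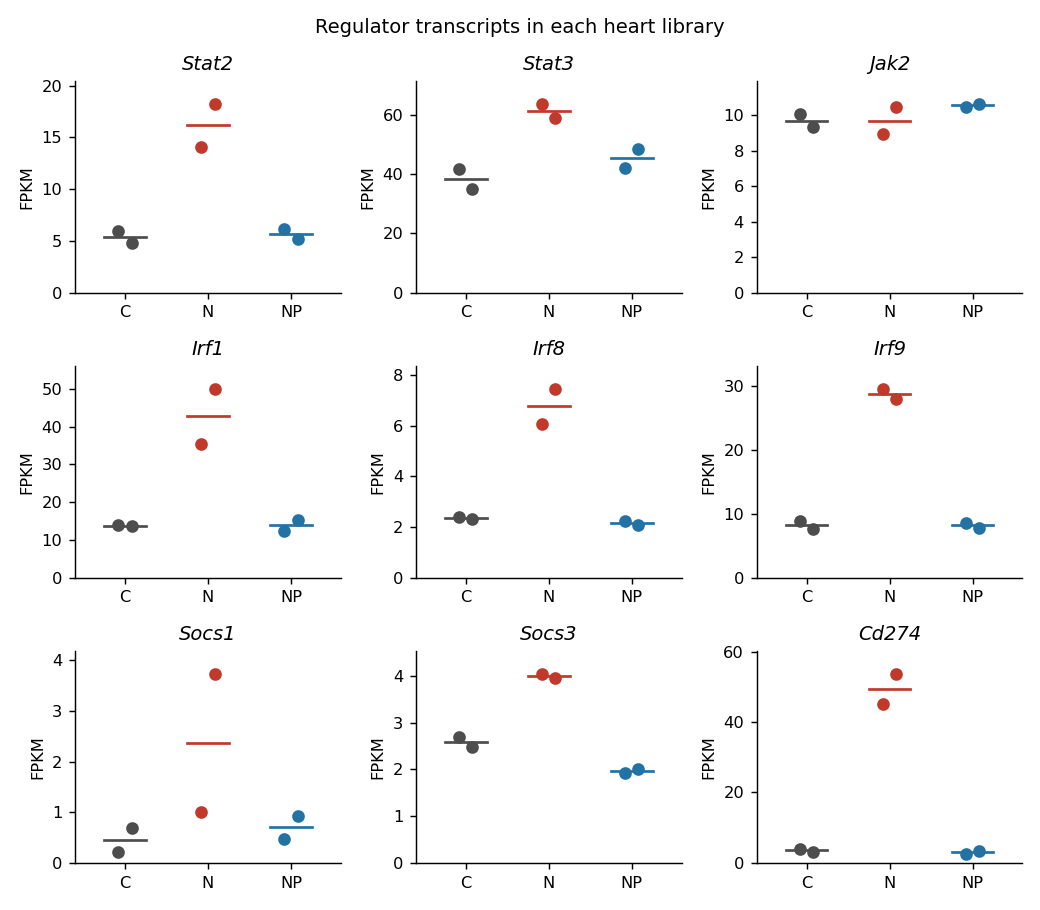
FPKM of each regulator (vertical axis, from 0) in the 6 heart libraries, by group (horizontal axis). Points are libraries and short lines are group means of 2 libraries. The N libraries lie above all others in 8 panels, and *Jak2* shows no such step.

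For 8 of the 9 genes each N library exceeded each C library, which held for 22.5% of all genes tested. Both NP libraries lay below both N libraries for the same 8 genes, against 14.7% of all genes tested. The exception was *Jak2*. The calls of *Irf9* and *Cd274* were kept in both comparisons with any of the 6 libraries left out. *Stat2*, *Irf1* and *Irf8* lost the N minus C call without C replicate 1, C replicate 2 or N replicate 2, which left 2 of the 9 called. From N to NP, 4 were called without N replicate 1 and 2 without any other single library.

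**Figure D2:**
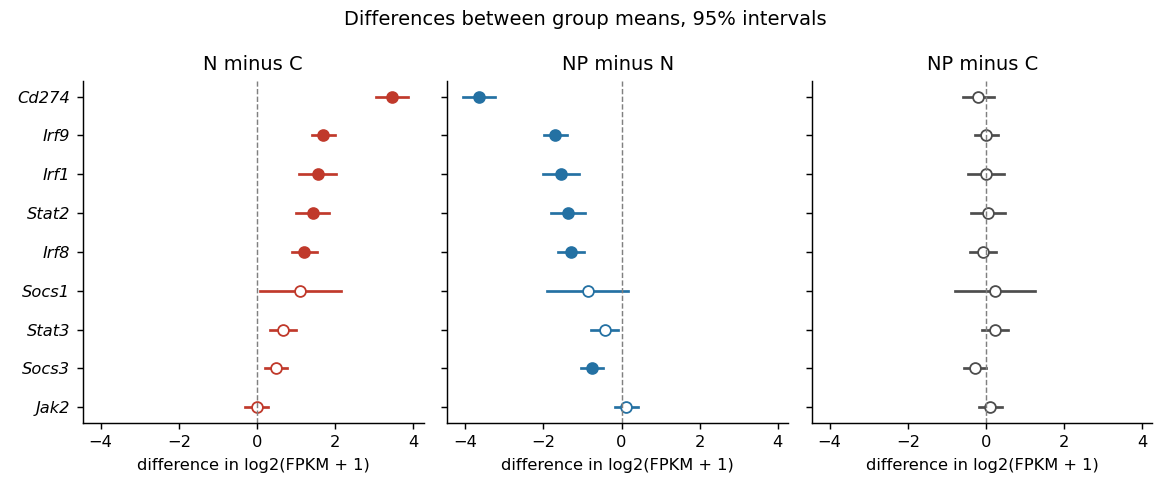
Difference between group means in log2(FPKM + 1) (horizontal axis) for each regulator (vertical axis), with 95% intervals from limma, for N minus C, NP minus N and NP minus C. Filled points have an adjusted *P* under 0.05. The intervals of NP minus C all include 0, and *Cd274* lies farthest from 0 in the other comparisons.

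Upstream of the regulators, interferon transcripts were hardly seen. Of 20 interferon genes, 19 had an FPKM of 0 throughout. The exception was *Ifng*, which encodes interferon-gamma and had an FPKM of 0.114 in N replicate 2, about 1 read, and 0 elsewhere. None of the 6 interferon receptor genes passed the test in any comparison. The most abundant, *Ifngr2*, the signalling chain of the interferon-gamma receptor, had an FPKM of 109 and 110 (C), 90.9 and 92.3 (N) and 89.1 and 115 (NP). Among 15 other ligands of JAK-coupled receptors, 4 were tested and 0 passed in limma's test in either comparison. *Il15*, the most abundant, had an FPKM of 21.1 and 31.6 (C), 15.9 and 29.0 (N) and 20.7 and 28.5 (NP). Of 14 other JAK-coupled receptors, 11 were tested. The lymphocyte cytokine receptor chains *Il2rb* and *Il2rg* were higher in N than in C by 1.79 and 1.14. They were lower in NP than in N by 1.72 and 0.98. *Il2rb* met the filter only through the N group (mean FPKM 0.179 in C, 3.06 in N and 0.237 in NP), so its calls are not independent of the filter.

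*Jak2* (chr19:29251803-29313095 in RefSeq's annotation of GRCm38.p6, which is mm10) encodes a kinase bound to the interferon-gamma receptor. Its FPKM was 10.1 and 9.32 (C), 8.92 and 10.5 (N) and 10.5 and 10.7 (NP). The groups lay within a narrow range, and the log2 difference from C to N was -0.0038 (95% interval -0.30 to 0.29, adjusted *P* = 0.997). The other 3 Janus kinases were alike in this: 0 passed in limma's test in any comparison, with log2 differences from -0.09 to 0.08 from C to N. *Jak1*, the most abundant, had an FPKM of 57.1 and 46.7 (C), 54.6 and 54.8 (N) and 65.9 and 51.1 (NP).

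*Stat2* (chr10:128270498-128292853) encodes a subunit of ISGF3. Its FPKM was 5.99 and 4.79 (C), 14.1 and 18.2 (N) and 6.11 and 5.15 (NP). The N libraries were 3.0-fold higher on average than the C libraries and did not overlap with either other group. The log2 difference was 1.42 (standard error 0.18, adjusted *P* = 0.022) from C to N and -1.36 (adjusted *P* = 0.0273) from N to NP. Without NP replicate 1, the adjusted *P* of the former was 0.0516, and without the filter on low values it was 0.0534. *Apof*, a gene of the liver that overlaps *Stat2*, had an FPKM of 2.61 in C replicate 2 and at most 0.11 elsewhere.

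*Stat3* (chr11:100886806-100939594) mediates signals of the interleukin-6 family and was the most abundant of the 9 genes. Its FPKM was 41.9 and 35.1 (C), 63.9 and 59.1 (N) and 42.2 and 48.6 (NP). Although the N libraries lay above the rest, neither the difference of 0.67 from C to N (adjusted *P* = 0.102) nor that of -0.43 from N to NP (adjusted *P* = 0.419) passed. *Stat5a* and *Stat5b*, the neighbours of *Stat3* on chromosome 11, had differences of 0.27 and 0.14 from C to N (adjusted *P* = 0.467 and 0.733).

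*Irf9* (chr14:55603985-55610030) encodes the DNA-binding subunit of ISGF3. Its FPKM was 8.83 and 7.61 (C), 29.6 and 28.0 (N) and 8.60 and 7.84 (NP). It was 3.50-fold higher in the N than in the C group, with little spread within groups. The log2 difference was 1.69 (standard error 0.12, adjusted *P* = 0.00308) from C to N and -1.69 (adjusted *P* = 0.00297) from N to NP. The NP and C groups differed by 0.0024 (95% interval -0.29 to 0.30).

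*Irf1* (chr11:53770014-53778374) encodes a factor that activates antigen presentation genes downstream of interferon-gamma. Its FPKM was 13.9 and 13.7 (C), 35.5 and 50.0 (N) and 12.4 and 15.4 (NP). The N libraries were apart from the rest but differed from each other. The log2 differences were 1.55 and -1.54 (adjusted *P* = 0.0219 and 0.0235). *Irf8* (chr8:120736358-120756694), a factor of macrophage and dendritic cell development, had an FPKM of 2.38 and 2.31 (C), 6.09 and 7.46 (N) and 2.24 and 2.09 (NP). Its log2 differences were 1.21 and -1.29 (adjusted *P* = 0.0141 and 0.0118). In the whole IRF family 5 of 9 genes passed in both comparisons, these 3 together with *Irf7*, a target and amplifier of type I interferon (2.36 and -2.34), and *Irf5* (1.08 and -1.11).

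*Socs1* (chr16:10783808-10785536) and *Socs3* (chr11:117966079-117970336) encode inhibitors that bind Janus kinases and receptors. *Socs1* had the lowest level of the 9 genes, with an FPKM of 0.225 and 0.684 (C), 1.01 and 3.73 (N) and 0.480 and 0.927 (NP). N replicate 1 was nearer to NP replicate 2 than to N replicate 2. At the length of its longest GENCODE transcript, these levels correspond to about 16, 40, 24, 88, 11 and 21 reads. The log2 difference of 1.10 from C to N had a 95% interval from 0.07 to 2.14 (unadjusted *P* = 0.0401) and did not pass after adjustment (adjusted *P* = 0.302). *Socs3* had an FPKM of 2.69 and 2.48 (C), 4.04 and 3.95 (N) and 1.92 and 2.002 (NP). Its difference was 0.48 from C to N (adjusted *P* = 0.136) and -0.76 from N to NP (adjusted *P* = 0.0473). The latter call was kept in 3 of 16 alternative settings, and its adjusted *P* was at most 0.207. The order of the *Socs3* levels was NP, C and N, and the NP and C groups differed by -0.28 (95% interval -0.56 to 0.0066).

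Among the 8 SOCS genes 0 passed from C to N in limma's test, and *Socs3* was the only one that passed from N to NP. The most abundant, *Cish*, had an FPKM of 50.4 and 67.0 (C), 104 and 41.3 (N) and 71.5 and 51.2 (NP). Of 10 other inhibitors, *Usp18*, which restrains the type I interferon receptor, was higher by 1.39 in N than in C and lower by 1.41 in NP than in N (adjusted *P* = 0.0083 and 0.00803). The leukocyte phosphatase *Ptprc* was higher by 1.29 in N than in C and lower by 1.66 in NP than in N. *Ptpn6*, a phosphatase of blood cells, passed only from N to NP (-1.38, adjusted *P* = 0.0372).

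*Cd274* (chr19:29362107-29388095) encodes PD-L1, the ligand of the T cell inhibitory receptor PD-1. Its FPKM was 3.95 and 3.21 (C), 45.0 and 53.6 (N) and 2.603 and 3.42 (NP). With a 13.8-fold higher mean in the N than in the C group, it had the largest difference of the 9 genes. The log2 difference was 3.46 (standard error 0.16, adjusted *P* = 0.00096) from C to N and -3.65 (adjusted *P* = 0.00084) from N to NP. It ranked 29 of 12923 genes by the size of the increase and 22 by the size of the decrease. Of 13 checkpoint ligands and receptors, 8 were tested, and *Ido1*, a tryptophan-degrading enzyme, passed beside *Cd274* (1.36 and -1.42, adjusted *P* = 0.0401 and 0.0377). The mean FPKM of *Ido1* was 0.299 (C), 2.40 (N) and 0.246 (NP). It met the filter only through the N group, so its calls are not independent of the filter. The receptor gene *Pdcd1* had an FPKM of 0.0220 and 0.0267 (C), 0.394 and 0.266 (N) and 0 and 0.136 (NP), below the filter. The second PD-1 ligand, *Pdcd1lg2*, was at most 0.0357 in any library.

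Most neighbours on the chromosome did not share the changes. *Cd274* lies 49012 bases from *Jak2*, which did not pass in any comparison. *Plgrkt*, which overlaps *Cd274*, had an FPKM of 20.6 and 20.8 (C), 18.3 and 31.7 (N) and 17.8 and 19.7 (NP) (adjusted *P* = 0.751 and 0.898). Within 100 kb of the 9 genes, 34 other genes were tested, of which 1 passed from C to N and 2 from N to NP. These were neighbours of *Irf9*, named after their values were seen. *Psme2*, a proteasome activator subunit, had differences of 1.28 and -1.62 (adjusted *P* = 0.0219 and 0.00991), and *Psme1*, its partner subunit, had 0.86 and -1.18 (adjusted *P* = 0.0772 and 0.031). *Rnf31*, 311 bases from *Irf9*, had 0.51 and -0.32 (adjusted *P* = 0.324 and 0.879).

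**Figure D3:**
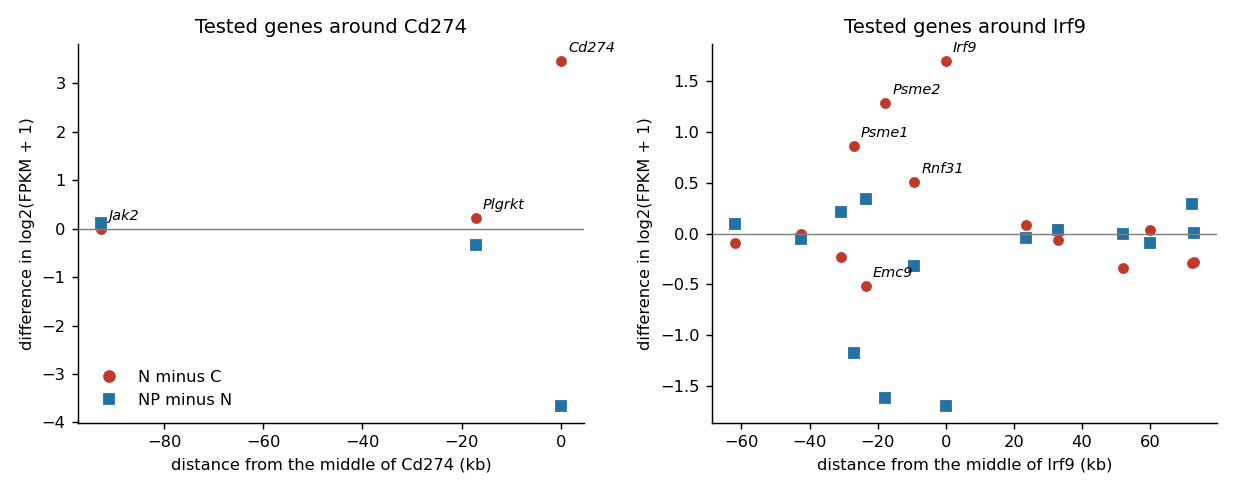
Difference in log2(FPKM + 1) (vertical axis) of tested genes within 100 kb of *Cd274* and of *Irf9* against their distance in kb from the middle of that gene (horizontal axis). Circles are N minus C and squares are NP minus N. *Jak2* and *Plgrkt* lie near 0 beside *Cd274*, and *Psme1* and *Psme2* are shifted in the direction of *Irf9*.

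Because most of the 9 genes moved together, the 250 bases before their RefSeq start sites were searched on both strands for the GAS letters TTCNNNGAA, which read the same on either strand, and for the ISRE core, 2 copies of GAAA parted by 2 bases. All 9 genes matched by symbol, with 12 start sites. The GAS letters were found in 3 of the 9 genes, *Irf1*, *Irf8* and *Socs3*, and occur in 8.13% of 27025 mouse genes and in 7.02% of their 32851 promoters of the same length. The ISRE core was found in *Stat2* and *Socs1*, and occurs in 3.46% of genes and 2.98% of promoters. The letters were not in the windows searched for *Jak2*, *Stat3*, *Irf9* and *Cd274*. The only *Cd274* window, chr19:29367188-29367437, lies inside the gene's annotated span, 18 of its 250 bases come before an annotated exon, and the bases before the start of that span were not searched. The *Stat3* and *Socs3* windows also reach into the span of their gene. The *Irf9* windows have 0 and 139 bases before an annotated exon. The stretches with a match are shown 5′ to 3′ in the direction of transcription, from RefSeq (GRCm38.p6), with the matches in capitals. In *Irf1* (chr11:53769764-53770013, plus strand) the match begins 90 bases before the start site.
*Irf1*: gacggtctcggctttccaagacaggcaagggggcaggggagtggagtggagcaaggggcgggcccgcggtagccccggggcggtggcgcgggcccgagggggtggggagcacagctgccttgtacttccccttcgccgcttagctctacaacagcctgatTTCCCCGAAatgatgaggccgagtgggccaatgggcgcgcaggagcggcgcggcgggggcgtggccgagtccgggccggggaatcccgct
In *Irf8* (chr8:120736108-120736357, plus strand) the matches begin 171 and 153 bases before the start site.
*Irf8*: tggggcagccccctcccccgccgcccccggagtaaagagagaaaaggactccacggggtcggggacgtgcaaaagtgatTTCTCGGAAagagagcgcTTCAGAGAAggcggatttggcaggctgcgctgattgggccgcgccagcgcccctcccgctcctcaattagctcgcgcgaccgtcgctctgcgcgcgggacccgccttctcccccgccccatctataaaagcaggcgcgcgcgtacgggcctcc
In *Socs3* (chr11:117969452-117969616, minus strand) the match begins 154 bases before the start site, and the stretch ends where an annotated exon begins.
*Socs3*: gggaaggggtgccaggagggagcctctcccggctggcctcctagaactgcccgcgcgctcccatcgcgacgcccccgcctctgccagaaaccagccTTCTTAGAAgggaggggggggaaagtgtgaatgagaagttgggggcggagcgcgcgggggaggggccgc
In *Stat2* (chr10:128270248-128270497, plus strand) the match, on the opposite strand, begins 222 bases before the start site.
*Stat2*: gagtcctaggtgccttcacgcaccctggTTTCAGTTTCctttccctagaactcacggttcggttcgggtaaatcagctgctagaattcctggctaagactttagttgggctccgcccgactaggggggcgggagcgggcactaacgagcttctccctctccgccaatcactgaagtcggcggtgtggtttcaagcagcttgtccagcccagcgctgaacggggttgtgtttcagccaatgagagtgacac
In *Socs1* (chr16:10785537-10785786, minus strand) a pair of overlapping matches begins 83 and 77 bases before the start site.
*Socs1*: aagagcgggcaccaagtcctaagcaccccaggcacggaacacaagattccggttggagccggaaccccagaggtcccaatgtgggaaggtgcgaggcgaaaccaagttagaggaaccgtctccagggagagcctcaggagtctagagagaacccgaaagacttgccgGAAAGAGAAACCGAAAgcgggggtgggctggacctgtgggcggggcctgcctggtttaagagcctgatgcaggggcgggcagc
A match is a description of the letters only, and binding was not measured.

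Known targets of the factors differed in how many passed. Of 16 ISGF3 targets, 14 were tested. Of these, 5 were higher in N than in C and 5 lower in NP than in N, with medians of 1.29 and -1.16. Of 15 STAT3 targets 0 passed in limma's test in either comparison, with medians of 0.30 and -0.26. *Mt1*, a metallothionein gene and the most abundant of them, had an FPKM of 426 and 360 (C), 386 and 339 (N) and 438 and 339 (NP). Whether the lists differed from each other was not tested.

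Among genes of antigen presentation, *Tap1*, the peptide transporter of MHC class I, had an FPKM of 4.63 and 3.21 (C), 44.4 and 45.1 (N) and 3.13 and 2.78 (NP). Its differences were 3.23 and -3.53 (adjusted *P* = 0.00104 and 0.00084). The immunoproteasome subunits *Psmb8* (3.06 and -3.18) and *Psmb9* (2.95 and -2.96) and the class I activator *Nlrc5* (2.13 and -2.48) followed it. For MHC class II, the activator *Ciita* had differences of 1.82 and -2.07, the chain *H2-Ab1* 2.44 and -2.93, and the invariant chain *Cd74* 2.59 and -2.78. *Gbp2* (2.66 and -2.49), *Serpina3g* (2.52 and -2.50) and the Fc receptor *Fcgr1* (1.28 and -1.45) also passed in both comparisons. The chemokine *Cxcl9* passed from N to NP (-2.32, adjusted *P* = 0.0344) and had 2.01 from C to N (adjusted *P* = 0.0531). Among ISGF3 targets, *Ifit3* (2.43 and -2.54), *Ifit1* (2.38 and -2.31), *Bst2* (1.73 and -1.92), *Oasl2* (1.51 and -1.07) and *Rsad2* (1.14 and -1.24) passed in both. Of these calls, only that of *Ifit3* from N to NP was kept under every alternative setting. *Gbp2*, *Serpina3g*, *Oasl2* and the *Ifit* genes belong to families of near copies, and the division of reads among them makes the values uncertain.

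**Figure D4:**
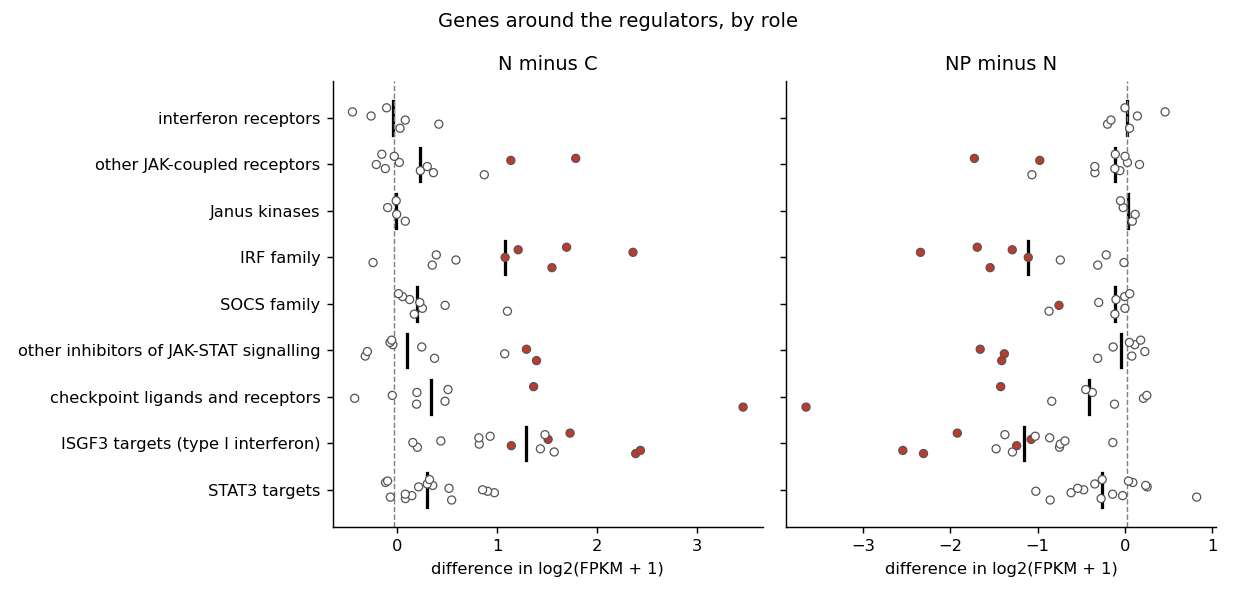
Difference in log2(FPKM + 1) (horizontal axis) of the tested genes of each list (vertical axis) for N minus C and NP minus N. Points are genes, filled where the adjusted *P* was under 0.05, black bars are list medians and the dashed line is the median of all genes. Interferon receptors and Janus kinases lie around the dashed line, and the ISGF3 targets lie farthest from it, with medians of 1.29 and -1.16.

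The genes whose log2 levels were most like 5 of the called regulators over the 6 libraries were ranked by Pearson's *r* among 12922 other genes. These *r* describe libraries in which the N group stands apart, and they rest on that step. They were *Igtp* (0.999) and *Gm1966* (0.9996) for *Cd274*, *Tapbpl* and *Nckap1l* for *Irf9*, *Xaf1* and *Casp1* for *Irf1*, *Bst2* and *Lilra5* for *Irf8*, and *Gzmb* and *Zc3hav1* for *Stat2*, all with *r* of at least 0.995. *Igtp*, an interferon-inducible GTPase, had an FPKM of 9.47 and 7.74 (C), 397 and 600.7 (N) and 6.46 and 8.97 (NP). *Tapbpl*, a peptide-loading factor of MHC class I, had 4.54 and 3.82, 17.0 and 15.9, and 4.08 and 4.15. *Nckap1l* is a gene of blood cells and *Gzmb* of cytotoxic lymphocytes, and *Gzmb* was among the genes compared only through its level in the N group.

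Markers of immune cells were examined in the same libraries. In bulk RNA, fewer cells of a type and less RNA per cell cannot be told apart. The 12 macrophage markers summed to an FPKM of 413 and 371 (C), 767 and 640 (N) and 315 and 276 (NP). Of these, 4 were higher in N than in C and 8 lower in NP than in N, with medians of 0.81 and -1.22, and *Lyz2* was the most abundant. The 9 NK cell markers summed to 0.738 and 0.892 (C), 8.995 and 12.8 (N) and 0.774 and 0.492 (NP). Among them *Nkg7* and *Gzmb* rose and fell again, with *Nkg7* the most abundant. The 9 T cell markers summed to 2.76 and 2.28, 7.50 and 6.15, and 3.15 and 2.18 in these groups, with *Cd28* leading, and the 7 B cell markers to 1.46 and 1.20, 6.15 and 6.20, and 1.72 and 1.84, with *Cd79a* leading. The 8 dendritic cell markers summed to 8.86 and 9.18, 12.9 and 10.6, and 9.43 and 6.80, led by *Zbtb46*, and the 5 neutrophil markers found to 7.18 and 3.20, 12.1 and 9.18, and 2.09 and 2.85, led by *S100a9*. In the T cell, B cell and dendritic cell lists, with 1, 2 and 4 genes tested, 0 passed in either comparison. Of 3 neutrophil markers tested, 0 passed from C to N and 1 from N to NP. Each gene of these lists was above 0 in at least 1 library. The part of such cells in the levels of the regulators was not tested.

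Markers of other tissues were compared in the same way. The 5 atrial markers summed to an FPKM of 307 and 172 (C), 3665 and 5177 (N) and 3748 and 6191 (NP), led by *Nppa*, the atrial natriuretic peptide gene. All 5 passed from C to N and 0 from N to NP in limma's test. The 5 genes that passed from C to NP were *Mlana*, *Mybphl*, *Myl4*, *Myl7* and *Sln*, with 3 of them on the atrial list, and each was higher in the NP group. They were named after their values were seen. The 6 adipocyte markers summed to 2.09 and 9.32 (C), 184 and 90.0 (N) and 16.0 and 74.4 (NP), led by *Cfd*, with medians of 2.86 from C to N and -1.45 from N to NP, and 0 of the 5 tested passed. The part of atrial and adipose tissue in the result was not tested. Endothelial and fibroblast markers, led by *Pecam1* and *Dcn*, had medians of 0.13 and 0.32 from C to N and -0.0094 and 0.03 from N to NP, and 0 passed in limma's test. Without C replicate 2, the library with hepatocyte transcripts, *Irf9* and *Cd274* remained called from C to N, whereas *Stat2*, *Irf1* and *Irf8* had adjusted *P* values of 0.174, 0.169 and 0.151. Their differences without it were 1.28, 1.54 and 1.20, against 1.42, 1.55 and 1.21 with it.

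**Figure D5:**
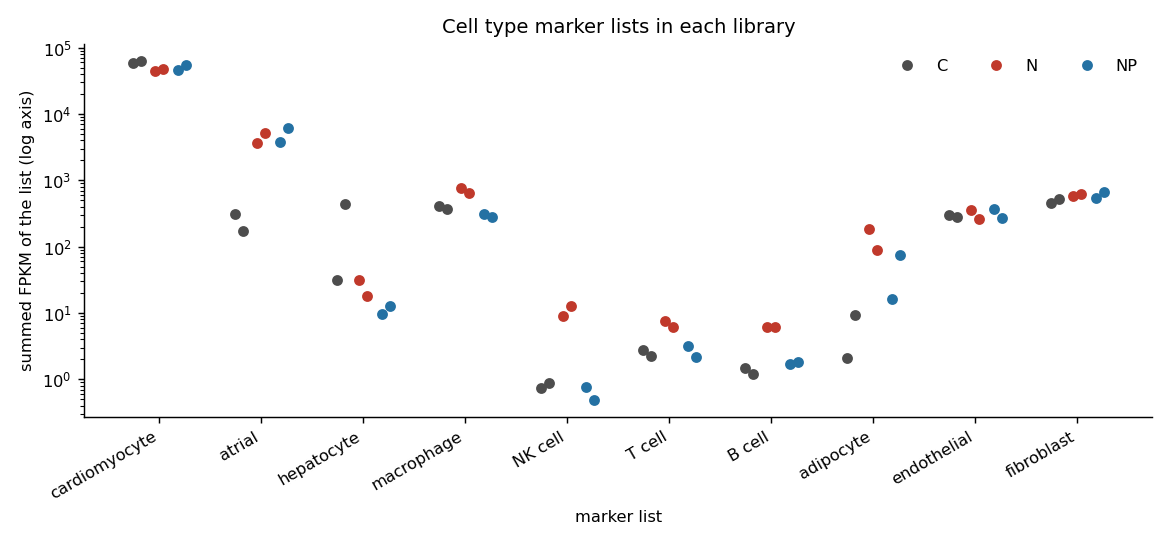
Summed FPKM of each marker list (vertical axis, logarithmic) in the 6 libraries, by list (horizontal axis). Points are libraries, coloured by group. Macrophage and lymphocyte lists are highest in the N libraries, atrial markers are high in both the N and NP libraries, and hepatocyte markers are highest in C replicate 2.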

How the data were processed

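The 6 heart libraries were assigned to C, N and NP by the diet and dose in their labels, 2 to each. According to the submitters' processing notes, the authors mapped 75-base single-end reads of stranded mRNA libraries to mm10 with TopHat2 2.0.13, Bowtie2 2.2.3 and SAMtools 0.1.19 and deposited FPKM from Cufflinks 2.2.1. The 2 files of N, and likewise of NP, carry names of unlike kinds, the same 2 kinds in both groups, and whether these mark batches or times is not stated. Nor is it stated whether the C hearts were dissected or sequenced apart from the rest. Whether counting used the strand is not given in the sources used here, so reads of overlapping genes may be shared.

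Values were taken as log2(FPKM + 1). A mean FPKM of 0.5 or more was required, which 12923 genes met, and these were fitted with limma 3.58.1 in R 4.3.3, with 3 groups in one model, 3 residual degrees of freedom and moderation that follows the mean level. Adjustment for multiple testing followed Benjamini and Hochberg across every gene tested in a comparison, and an adjusted *P* under 0.05 was called. Depth was estimated from 3076 genes with 1 GENCODE M21 transcript, less 200 bases, as the depth at which FPKM gave whole reads (between 76.0% and 80.2% of values of up to 6 reads lay within 0.1 read). Motifs were searched in RefSeq promoters with Python 3.11.15, pandas 2.3.3 and numpy 2.4.6, and plots were drawn with matplotlib 3.10.9. The fit and the depth estimate were tested on simulated data.

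The 9 genes and the lists were chosen with earlier results of these data known, and the lists were written by hand. Of the listed symbols, *Ly6g* and *Hbb-bt* were not in the files. Named genes are the 9, the 30 listed pathway genes with the smallest *P* among those called in any comparison, the most abundant gene of each other list, and the 2 genes most like a called regulator, although not each gene that this rule gives is reported. Genes named for other reasons were chosen after their values were seen. Alternatives were other pseudocounts, filters and scalings, only the groups compared, a replicate block, moderation without a trend, and leaving out each library.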

Additional observations from a re-analysis of the deposited data

How the results depend on the processing

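The log2 differences of the 9 genes in 3 comparisons were recomputed under 16 alternative settings, 429 values in all. The 11 called differences kept their sign under each setting that could be run, *Cd274* and *Irf9* kept their calls throughout, and 44 values of other called differences missed the threshold. In differences that were not called, 12 values changed sign without being called. *Socs1* has no value with the filter of a mean FPKM of at least 2. Among the other named pathway genes, many calls were also lost under some setting, among them those of *Irf5*, *Usp18*, *Il2rb*, *Il2rg* and *Fcgr1* in both comparisons.

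From C to N, 200 genes were called, or 309 with FPKM scaled to the same total, which shifts the median of all genes by 0.147. Leaving out 1 library gave 78 to 194 genes and 2 to 5 of the 9. From N to NP, 179 genes were called, or 112 with only the groups compared in the model, which also left 3 of the 9 called, as did no filter. Leaving out 1 library gave 75 to 106 genes and 2 to 4 of the 9. From C to NP, 5 genes were called, or 12 with a pseudocount of 0.1, 10 scaled to the same total, 0 without the filter and 5 to 107 with 1 library left out; 0 of the 9 passed in any setting, and 1040 genes had an unadjusted *P* under 0.05. Where a library was left out, the lone one was assumed to vary like the others.

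With a replicate block, 328, 200 and 20 genes passed in the 3 comparisons and 5, 5 and 0 of the 9, with the *Socs3* call from N to NP lost (adjusted *P* = 0.0618). The replicate numbers were not taken as a pairing, since the labels do not say what they mark, and the file names within N and within NP are of unlike kinds that recur in both groups, which may mark batches or times. The difference of replicate 2 from replicate 1 correlated across genes by 0.458 between the N and NP groups, 0.0471 between C and N and 0.124 between C and NP.

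The cause of these changes was not tested.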

Other observations

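Of 10 PPAR-alpha target genes, 0 passed in limma's test in any comparison, with medians of -0.54 from C to N and -0.48 from N to NP. *Fabp3*, the heart fatty acid binding protein gene and the most abundant, had an FPKM of 9888 and 10233 (C), 7176 and 7985 (N) and 5957 and 8109 (NP). *Pdk4*, an inhibitor of pyruvate oxidation, had 1038 and 1108 (C), 996 and 129 (N) and 338 and 89.5 (NP), and was chosen after its values were seen. Of the 4 erythroid markers found, 3 were tested and 0 passed in limma's test, and *Hba-a1*, the most abundant, had an FPKM of 29.95 in C replicate 1 and between 143 and 181 in the other libraries.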
